A study of Mus musculus with 22 samples.

Results

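Imprinting control regions are stretches of DNA that carry methyl groups on the copy inherited from one parent and not on the other. The mark is laid down in the egg or the sperm and is kept through development in the cells of the body, where it sets which parental copy of the neighbouring genes is transcribed. A cell population that keeps the mark therefore reads intermediate methylation at such a region, between the unmethylated and the methylated copy. The data described here are from reduced representation bisulfite sequencing (RRBS), a method that samples the CpG dinucleotides close to MspI cut sites, over 18 windows of the mouse genome (mm10) at known imprinting control regions. The windows were given by their coordinates, without use of the measured values. A position is a cytosine of 1 strand, and positions listed in at least 2 files of each of the 4 groups were used: 964 of the 1157281 autosomal positions that met this rule lay in the windows, and 1994 positions in the windows were listed in any file. Of the 18 windows 17 held at least 1 such position, and 16 held the minimum of 3 needed for a test.

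All animals were C57BL/6 mice. Müller glia, the principal glia of the retina, were sorted by fluorescence from Rlbp1-GFP reporter mice, so the gate rests on the activity of a Müller gene reporter. Young Müller glia came from animals of 2 to 3 months, and injured Müller glia from animals of the same age given NMDA, an excitotoxin of retinal neurons, into the vitreous 2 days before collection. Aged Müller glia came from animals of 1.5 years. Retinal progenitor cells (RPCs) came from embryonic day 12.5 embryos, for which no sort is described. Each group had 3 RRBS libraries, described as biological replicates, and RNA libraries numbered 2 for young, 3 for NMDA, 2 for aged and 3 for RPC samples. The number of animals behind a library is not given in the sources used here. In RNA the 8 Müller markers (among them Rlbp1 and Glul) summed to 46805 to 55558 CPM (counts scaled to the library total) in young, 14606 to 18285 in NMDA, 44739 to 45482 in aged and 2274 to 2303 in RPC libraries. Most of the lower sum after NMDA came from Glul (26680 and 33663 CPM in young, 2610 to 4586 in NMDA), while Vim was higher (533 and 769 CPM in young, 1902 to 2475 in NMDA). The RRBS libraries hold no expression, so their cell content was not tested.

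The windows cover regions of 2 kinds. At H19 and at Meg3-Dlk1 the copy methylated in the germ line is the paternal one, and at the other 16 it is the maternal one. Several maternal marks lie at promoters, and the bases before 2 RefSeq start sites (GRCm38.p6) are shown because they hold the most measured positions of the promoter entries in the windows, apart from an entry of Hymai that overlaps the first. The first is the stretch before the start of Plagl1, a zinc finger gene expressed from the paternal copy, at chr10:13090582-13090831 on the plus strand. The second is the stretch before a start listed for Commd1 on the minus strand, at chr11:22972867-22973116, inside the window of Zrsr1, a retrogene expressed from the paternal copy that lies within Commd1. Both are written 5′ to 3′ along the gene, and capitals mark the CpGs that were measured, 15 of 19 in the first and 13 of 13 in the second.
Plagl1: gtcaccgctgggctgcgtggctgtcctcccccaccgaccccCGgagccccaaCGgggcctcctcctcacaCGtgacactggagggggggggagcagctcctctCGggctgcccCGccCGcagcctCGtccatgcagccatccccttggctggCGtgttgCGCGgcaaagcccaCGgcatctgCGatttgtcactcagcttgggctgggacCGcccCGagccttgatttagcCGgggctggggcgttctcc
Commd1: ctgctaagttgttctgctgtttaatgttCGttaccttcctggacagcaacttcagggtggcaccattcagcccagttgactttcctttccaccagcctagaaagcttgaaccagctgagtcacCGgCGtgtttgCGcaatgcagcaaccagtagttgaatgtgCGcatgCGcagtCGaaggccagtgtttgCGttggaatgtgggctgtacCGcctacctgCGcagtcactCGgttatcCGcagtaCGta

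The Plagl1 stretch read 9.45, 19.3 and 25.9% in the 3 young libraries, 44.2, 37.4 and 39.3% in the NMDA libraries, 27.5, 19.4 and 21.6% in the aged and 39.8, 47.5 and 30.8% in the RPC libraries (means over 28 positions). The Commd1 stretch read 20.3, 46.2 and 33.7% in young, 52.6, 43.0 and 46.7% in NMDA, 58.4, 31.5 and 40.5% in aged and 63.4, 54.7 and 46.2% in RPC libraries (26 positions). Every NMDA and RPC library lay above every young library in the Plagl1 stretch, whereas the groups overlapped in the Commd1 stretch. The motif TGCCGC, which the imprint-protecting factor Zfp57 recognises when methylated, was searched on both strands (reverse complement GCGGCA) in the 300 bases from 250 before to 50 after each start. It occurred in 3809 of 32817 RefSeq promoters (11.6%) and in 7 of the 17 entries that fall in the windows, several of which overlap each other. The Plagl1 entry held 1 match and the Commd1 entry 0.

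**Figure D1:**
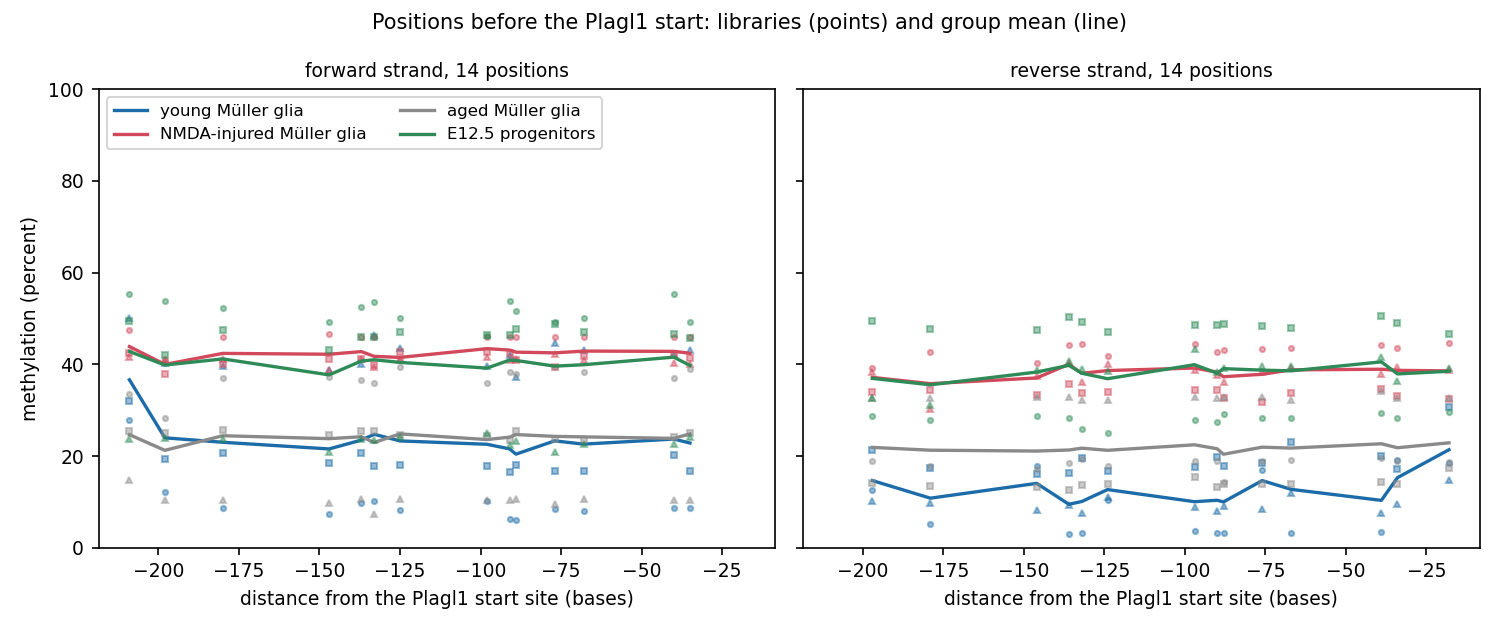
Methylation (percent) of the 28 positions before the Plagl1 start against the distance from that start in bases, with the forward strand on the left and the reverse strand on the right, points for libraries (circle, square and triangle for replicates 1, 2 and 3) and lines for group means. The NMDA and RPC lines lie above the young and aged ones on both strands, and young replicate 3 (blue triangles) stands at 41.6% on the forward and 9.18% on the reverse strand on average over the CpGs read on both.

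Within a library and a strand, neighbouring positions share reads, so positions are not independent measurements. The strands of the same CpGs, in contrast, could differ widely within 1 library. Over the 13 Plagl1 CpGs read on both strands, young replicate 3 stood at 41.6% on the forward and 9.18% on the reverse strand, and RPC replicate 1 at 51.3 and 27.9%. Across the 14 windows with at least 5 such CpGs, the strand means of a library differed by a median of 7.06 points and by over 25 points in 15 of 168 cases, with a maximum of 50.5 points at Peg10 in young replicate 2. The median strand difference lay above the median window difference with age (4.70 points) and under those after NMDA (21.2) and in RPCs (25.4). The widest strand differences exceeded all of these. The reads carry no molecular identifiers, so coverage can overstate the number of molecules seen. A position that a library did not list was taken at that library's mean deviation from the other positions of the window. Median coverage of the window positions was 57 to 126 reads per library.

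One library stood apart in the windows. Averaged over the 16 windows, methylation was 10.9, 29.7 and 23.5% in young, 46.2, 35.4 and 41.5% in NMDA, 28.9, 32.8 and 19.8% in aged and 52.3, 43.8 and 46.3% in RPC libraries. Young replicate 1 was the lowest of the 12 libraries in 14 of 16 windows, and aged replicate 3 in the other two, Snrpn and Impact. In young replicate 1, 65.3% of the window positions listed read under 10%, against 20.4 and 34.5% in the other young libraries and 0 to 7.78% in the NMDA and RPC libraries. Its mean over all positions listed in all 12 files, 23.1%, lay within the range of the others (21.7 to 24.9%). The counts of the tests are therefore given with and without young replicate 1, whereas group means and shares by level hold all 3 young libraries.

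**Figure D2:**
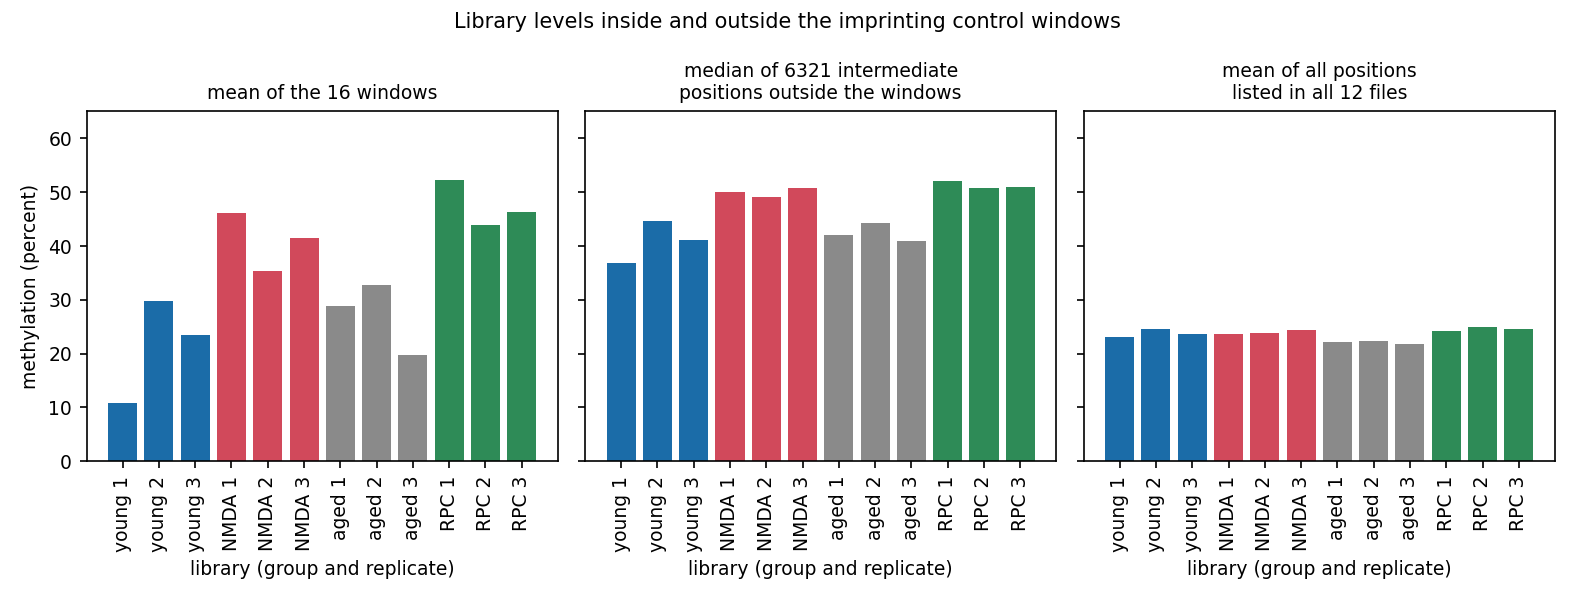
Methylation (percent) of each RRBS library: the mean of the 16 windows (left), the median of 6321 positions outside the windows that lay between 30 and 70% in all NMDA and RPC libraries (middle), and the mean of all positions listed in all 12 files (right). The window mean spans 10.9 to 52.3% over libraries, whereas the mean of all positions spans 21.7 to 24.9%.

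The low window levels of young and aged libraries were set beside positions elsewhere in the genome that also read intermediate. Positions were taken that lay between 30 and 70% in all NMDA and all RPC libraries, a choice that fixes those 6 libraries and leaves the young and aged ones free. Inside the windows 145 such positions had medians of 10.8, 41.9 and 37.7% in young and 36.8, 35 and 26.3% in aged libraries. Outside the windows 6321 positions had medians of 36.8, 44.6 and 41.2% in young and 42.1, 44.3 and 40.9% in aged libraries. All 6 free libraries were lower inside the windows than outside them. So were 5 of the 6 libraries used for the choice: NMDA libraries had medians of 48.6, 43.3 and 46.3% inside against 50, 49.1 and 50.8% outside, and RPC libraries 55.3, 46.5 and 47.2% against 52.2, 50.7 and 51.0%. The gaps of young replicates 2 and 3 and of aged replicate 1 were no larger than some of these. Those of aged replicates 2 and 3 were larger than all of these, and the widest gap was that of young replicate 1. The window positions lay in denser CpG neighbourhoods (a median of 7.0 CpGs within 50 bases against 3.0), and 749 outside positions of like density, 6.0 to 8.0, had medians of 34.5 to 45.5% in young and 40.7 to 44.3% in aged libraries. These values are a description without a test.

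By group, the mean of the 16 windows was 21.4% ± 9.6 in young, 41.0% ± 5.4 in NMDA, 27.2% ± 6.6 in aged and 47.5% ± 4.3 in RPC libraries (SD, n = 3 libraries each). Window means between 35 and 65% were found for 3 of 16 windows in young, 12 in NMDA, 5 in aged and 14 in RPC cells, and 13 windows were under 35% in young cells. Of the 964 positions, 20.6% had a group mean between 35 and 65% in young, 53.7% in NMDA, 22.5% in aged and 62.9% in RPC cells. Among all other positions that class held 4.04 to 5.40% in the 4 groups. Under 10% stood 30.2% of window positions in young cells and 0.311% in RPCs. The young values hold young replicate 1, whose window mean was 10.9%, against 29.7 and 23.5% in the other young libraries. Of its listed window positions 6.95% read between 35 and 65%, against 28.0 and 24.7% in the other young libraries. The aged libraries had 27.8, 27.7 and 21.0% there.

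**Figure D3:**
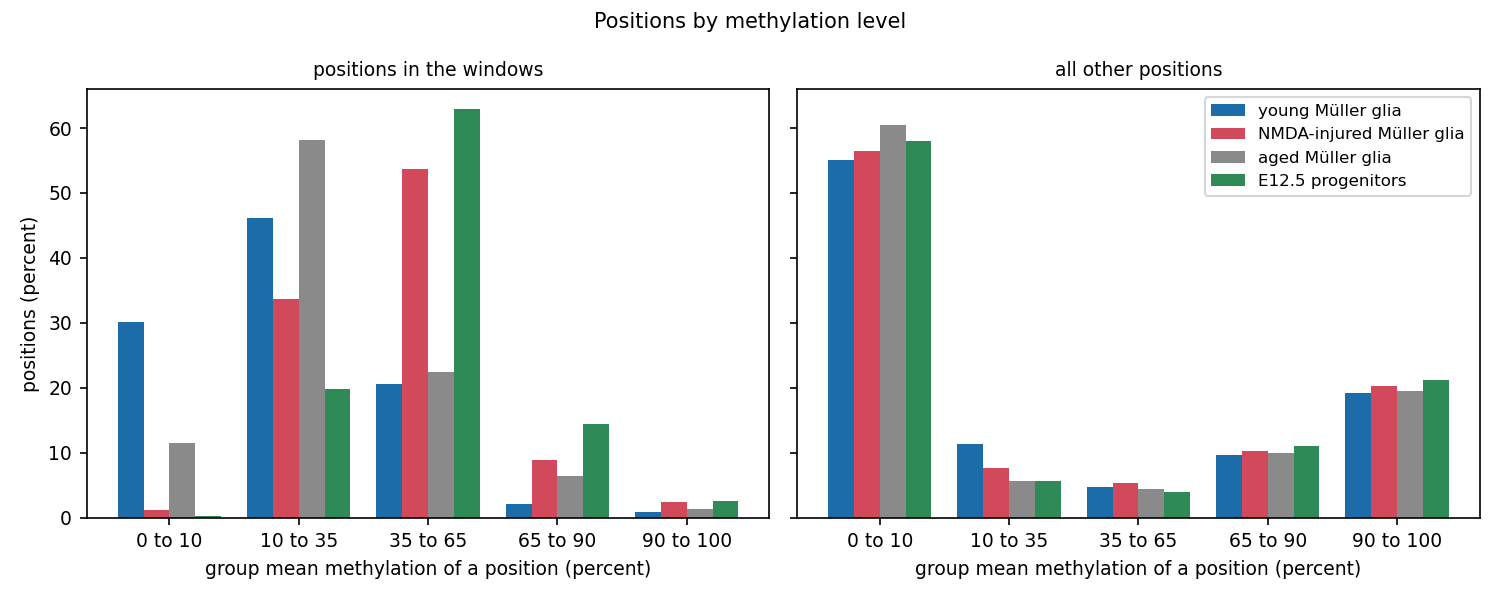
Share of positions (percent) in each class of group mean methylation, for the 964 window positions (left) and the 1156317 other positions (right), with a bar for each group. The class from 35 to 65% holds 53.7 and 62.9% of window positions in NMDA and RPC cells and 20.6 and 22.5% in young and aged cells. The young means include young replicate 1.

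The first question was whether window methylation differed between NMDA-injured and young Müller glia. It was higher after NMDA in 8 of 16 windows by limma on window means (adjusted p under 0.05 over all tiles and windows): Nnat, Gnasxl-Nespas, Gnas exon 1A, Mest, Snrpn, Plagl1, Grb10 and Airn. The count of 8 was 5 with no variance trend, 6 with the replicate block and 1 (Plagl1) when the 2 groups were fitted alone. The median difference over the 16 windows was 21.2 points and all 16 were positive, and without young replicate 1 the median was 13.3 points and 15 were positive, Peg13 standing at -0.53. Over the 30 tiles of 1 kb with at least 3 positions the median was 19.4 points, against -0.29 over all 76561 tiles tested. Of the 30 tiles 13 passed, all higher, where 26.3% of all tiles passed and 7.96% passed as higher. Without young replicate 1, 3 of 30 tiles and 2 windows (Snrpn and Plagl1) passed, where 22.7% of all tiles passed. Without NMDA replicate 1, 6 tiles (20% of them, where 22.7% of all tiles passed) and the same windows, Snrpn and Plagl1, passed. Without young replicate 3 or NMDA replicate 3, 8 tiles passed in each case (26.7%, where 31.9 and 19.8% of all tiles passed), and 4 windows passed without NMDA replicate 3. The share of tiles called was thus under that of all tiles without young replicate 1, young replicate 3 or NMDA replicate 1. That comparison joins both directions: all window tiles called in those fits were higher, whereas most calls over all tiles were lower. As higher passed 4532 of 74057 tiles without young replicate 1 and 5185 of 61356 without young replicate 3. Without NMDA replicate 1, 5648 of 75710 tiles passed as higher.

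Snrpn encodes a splicing protein of the Prader-Willi region. Its window (chr7:60003001-60006000, 40 positions) read 4.48, 6.28 and 3.14% in young and 54.7, 16.2 and 35.2% in NMDA libraries, a difference of 30.8 points ± 8.0 (SE; limma adjusted p = 0.0162). All NMDA libraries were above all young ones, and the NMDA libraries spread far more than the young ones (SD 19.3 against 1.57). Aged libraries read 5.69, 19.4 and 2.36% and RPC libraries 45.2, 31.4 and 34.3%.

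Plagl1 had the smallest adjusted p of the windows after NMDA. Its difference was 22.1 points ± 5.1 (SE; limma adjusted p = 0.00932), and 17.7 points without young replicate 1 (limma adjusted p = 0.0366). The Airn window (chr17:12741001-12744000, 27 positions) lies in an intron of Igf2r, at the start of the noncoding RNA that silences neighbours on the paternal copy. Airn read 6.33, 22.0 and 13.1% in young and 48.5, 25.2 and 32.5% in NMDA libraries, a difference of 21.6 points ± 5.8 (SE; limma adjusted p = 0.0192). Without young replicate 1 the Airn difference was 17.8 points (limma adjusted p = 0.0722).

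Mest, which encodes a hydrolase-like protein expressed from the paternal copy, had the largest difference after NMDA with all libraries, and Snrpn had the largest without young replicate 1 or without NMDA replicate 2. The Mest window (chr6:30735001-30740000, 93 positions) read 3.49, 43.1 and 28.8% in young and 59.4, 64.1 and 54.9% in NMDA libraries, 34.3 points higher (SE 9.98; limma adjusted p = 0.0263). The young libraries of Mest ranged from under 4 to over 43%, and without replicate 1 the difference was 23.4 points (limma adjusted p = 0.0823). Aged libraries read 39.5, 54.8 and 27.4% and RPC libraries 59.4, 61.6 and 78.1%. The Mest tile at 30735001-30736000 read 20.3% ± 19.9 in young, 55.0% ± 8.8 in NMDA and 11.5% ± 10.9 in aged libraries (SD, n = 3). It had the largest gain of the tiles after NMDA (34.7 points, limma adjusted p = 0.0296), followed by the Mest tile at 30738001-30739000 (33.9 points, limma adjusted p = 0.0337) and the Snrpn tile at 60004001-60005000 (31.4 points, limma adjusted p = 0.0112).

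Grb10 encodes an adaptor that dampens insulin receptor signalling, and its window (chr11:12025001-12028000, 111 positions) read 7.81, 30.8 and 15.1% in young and 35.8, 34.1 and 37.3% in NMDA libraries. The NMDA libraries of Grb10 were close to each other and above all young ones, by 17.8 points ± 5.5 (SE; limma adjusted p = 0.0346). Nnat, which encodes a small membrane protein, read 5.85, 24.7 and 17.6% in young and 50, 32.0 and 34.7% in NMDA libraries (chr2:157559001-157562000, 73 positions; 22.8 points, limma adjusted p = 0.0324). Gnas, the gene of the stimulatory G protein alpha subunit, has 2 windows here. The Gnasxl-Nespas window (chr2:174293001-174301000, 162 positions) read 13.1, 38.5 and 32.2% in young and 44.6, 47.0 and 49.7% in NMDA libraries (19.2 points, limma adjusted p = 0.0402). Gnas exon 1A (chr2:174326001-174329000, 68 positions) read 5.15, 9.37 and 6.24% in young and 53.4, 20.6 and 20.9% in NMDA libraries (24.7 points, limma adjusted p = 0.0378). Young replicate 2 and NMDA replicate 3 listed 46 of the 68 positions of exon 1A. In exon 1A the NMDA libraries split into 1 high and a pair near 21%, all above the young ones, and without NMDA replicate 1, the high one, the difference was 12.5 points (limma adjusted p = 0.108). Aged libraries read 23.6, 26.2 and 18.1% at Grb10, 28.6, 24.0 and 18.8% at Nnat, 36.3, 37.3 and 30.4% at Gnasxl-Nespas, 17.4, 23.4 and 8.80% at exon 1A and 10.4, 16 and 7.84% at Airn. These windows overlapped the young range in at least 1 aged library each. Nnat, both Gnas windows, Mest, Grb10 and Airn no longer passed the limma test without young replicate 1 (adjusted p from 0.0722 to 0.202).

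The windows that did not pass after NMDA also had positive differences, from 4.37 points at Peg13 to 25.5 at Peg3. In 12 of 16 windows the 3 NMDA libraries lay wholly above the 3 young ones, as did 14.8% of all 1 kb tiles without missing libraries. The exceptions were Peg10, Nap1l5, Inpp5f and Peg13. Peg3, a zinc finger gene expressed from the paternal copy, read 9.83, 54.4 and 41.3% in young and 65.4, 54.6 and 62.1% in NMDA libraries (chr7:6727001-6733000, 15 positions; limma adjusted p = 0.0896). Its aged libraries read 43.2, 46.5 and 29.9%, and its RPC libraries 69.6, 51.2 and 52.9%, the first from 6 of the 15 positions. Peg10 read 36.5, 30 and 29.2%, Nap1l5 34.9, 46.7 and 59.8%, Inpp5f 40.4, 11.7 and 33.5% and Peg13 40.3, 45.6 and 45.6% in NMDA libraries. Zrsr1 was at 51.0, 41.3 and 48% after NMDA, above its young libraries, with a limma adjusted p of 0.0705.

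**Figure D4:**
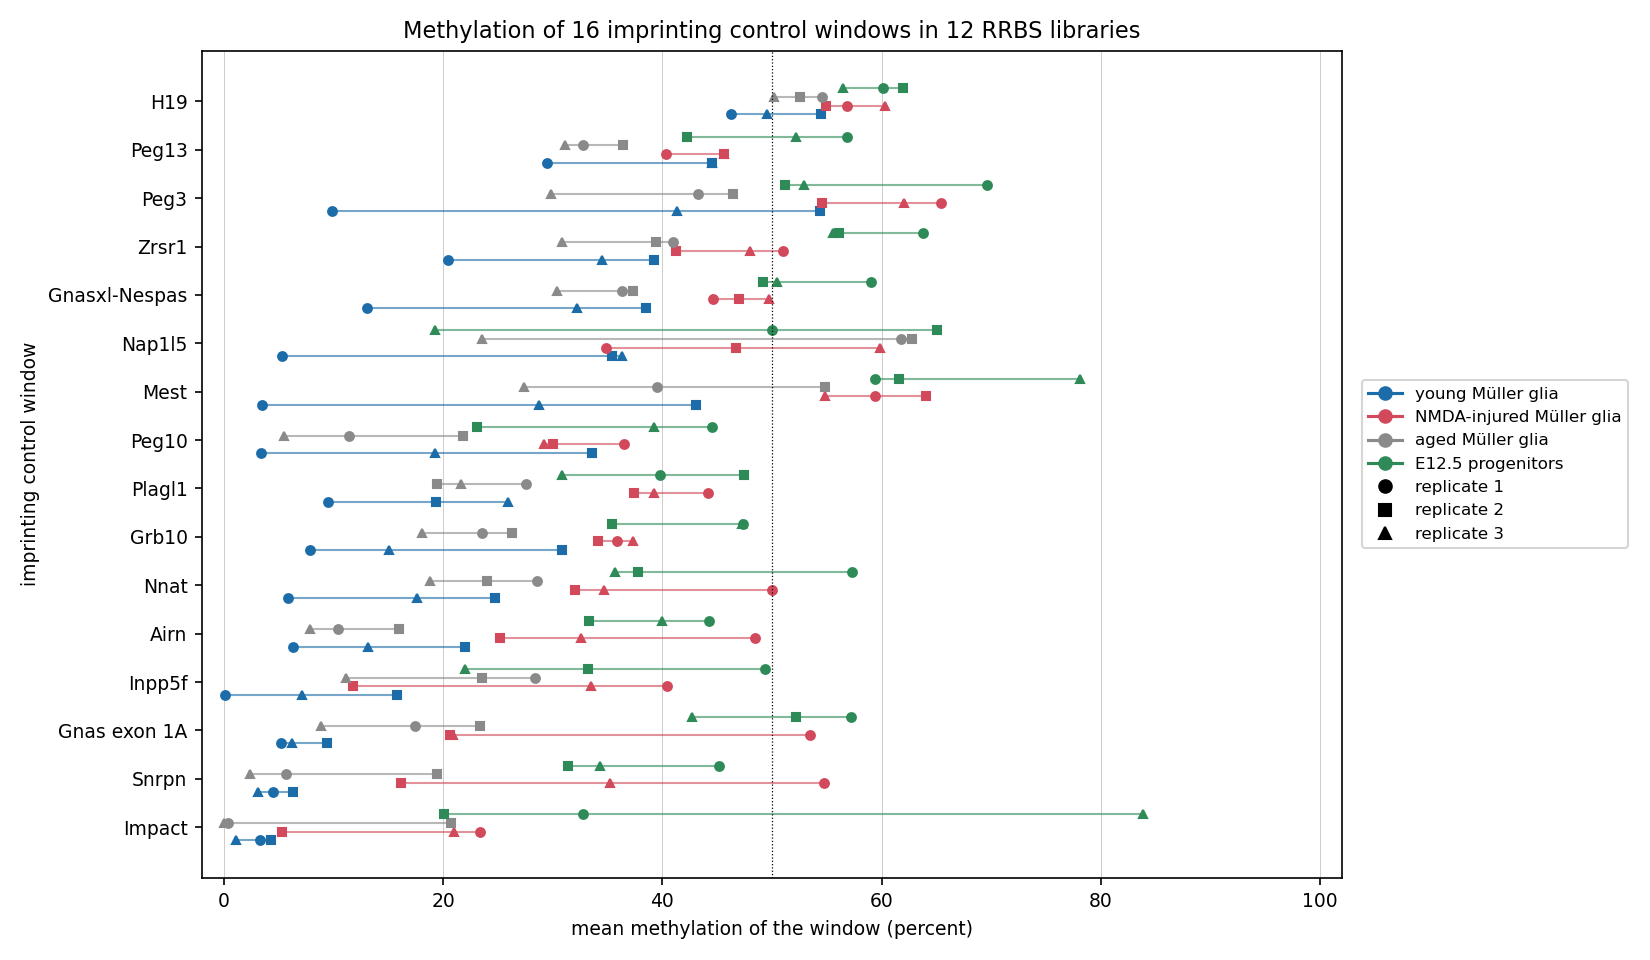
Mean methylation (percent) of each of the 16 windows in each of the 12 RRBS libraries, with colour for the group, marker shape for the replicate and a line for the range of the 3 libraries (the dotted line marks 50%). In 14 windows the lowest library is young replicate 1, and the 3 young libraries of Gnas exon 1A, Snrpn and Impact all lie under 10%.

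Single positions were tested with a quasi-binomial model of methylated and unmethylated reads. After NMDA 121 of 964 window positions passed (adjusted p under 0.05 and a difference of at least 10 points), all higher, which is 12.6% of them, where 1.2% of all positions passed and 0.949% passed as higher. Snrpn gave 24 of its 40 positions, Grb10 30 of 111 and Airn 10 of 27, while Peg10, Nap1l5, H19 and Peg13 gave 0. The largest differences stood at Gnas exon 1A and at Mest. At chr2 position 174328905 on the forward strand, in Gnas exon 1A, young replicates 1 and 3 read 0% and NMDA replicates 1 and 2 78.3 and 25% (12 to 31 reads; adjusted p = 0.017). At chr6 position 30738247 on the forward strand, in Mest, young libraries read 0, 30 and 12.1% and NMDA libraries 73.0, 71.6 and 63.6% (20 to 37 reads in young and 22 or more in NMDA libraries; adjusted p = 0.011). At chr6 position 30738381 on the reverse strand, also in Mest, young libraries read 0, 28.3 and 36.8% and the 2 NMDA libraries that listed it 80.3 and 94.1% (17 to 71 reads; adjusted p = 0.037).

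The number of positions called after NMDA moved with single libraries. It was 58 without young replicate 1 (where 0.839% of all positions passed), 203 without young replicate 2 (1.68%), 13 without NMDA replicate 1 (0.554%), 80 without NMDA replicate 2 (0.419%) and 53 without NMDA replicate 3 (0.335%). Window positions varied more between replicates than others of similar level (median overdispersion 6.85 against 3.83 among positions at 20 to 80%), and the test borrows the spread of other positions. With no such borrowing 0 positions passed in the windows and 0 in the genome, and 348 window positions had an unadjusted p under 0.05.

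The second question was whether aged Müller glia differed from young ones. No window passed the limma test, none had an unadjusted p under 0.05, and the median difference was 4.70 points over the 16 windows, 13 of them positive. Without young replicate 1 the median was 0.347 points and 10 were positive. A test on summed reads called 3 windows and 5 of the 30 tiles (16.7%, where 35.2% of all tiles passed). Over the 30 tiles the median difference was 3.47 points, against -1.80 over all tiles. A single tile passed, where 21.9% of all tiles did and 20.9% passed as lower: in the H19 gene at chr7:142576001-142577000, 4 positions read 99.88, 96.7 and 95.3% in young and 90.7, 92.6 and 84.7% in aged libraries (limma adjusted p = 0.039). The groups did not overlap there, at a difference of -7.99 points. Without aged replicate 1 or aged replicate 3, 0 tiles passed, and without young replicate 2 there were 2. With the 2 groups fitted alone 1 tile passed, but as higher, so this call was lost. No window had aged libraries wholly above or wholly below the young ones, where 3.16% of all tiles lay above and 35.1% below.

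Among positions 46 of 964 passed with age (4.77%, where 2.05% of all positions passed, 0.163% higher and 1.89% lower), 35 higher and 11 lower. Mest gave 16 and Nap1l5 7 of the higher ones, and Peg13, a noncoding RNA gene inside Trappc9, gave all 11 lower ones. The 3 largest differences were neighbours on the reverse strand of Nap1l5, a retrogene expressed from the paternal copy. At chr6 position 58906824 the young libraries read 0, 23.5 and 38.0% and the aged libraries 80.7, 100 and 50%, with 11 to 31 reads in aged libraries (adjusted p = 0.0025). Positions 58906866 and 58906779 read 61.9% or more in every aged library and at most 52.9% in every young one (quasi-binomial adjusted p = 0.0033 and 0.0066). The Nap1l5 window as a whole (chr6:58906001-58909000, 30 positions) read 5.31, 35.4 and 36.3% in young and 61.8, 62.7 and 23.5% in aged libraries, so the groups overlapped (limma adjusted p = 0.304). Without young replicate 1 there were 37 called positions, 5 higher and 32 lower, where 1.84% of all positions passed. Without aged replicate 1 there were 2 called positions in the windows (0.21% of them, where 0.827% of all positions passed) and without aged replicate 2 there were 7 (0.734%, where 1.29% passed), both under the share of all positions. With no borrowing of the spread 0 passed, and 128 had an unadjusted p under 0.05.

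The third question was how window methylation differed between E12.5 progenitors and young Müller glia. It was higher in RPCs in 11 of 16 windows, the 8 named after NMDA and Inpp5f, Zrsr1 and Impact. The comparisons share the 3 young libraries, so their overlap is no independent result, and injured cells were not tested against RPCs. The median difference was 25.4 points over windows and 24.8 over the 30 tiles, against -0.70 over all tiles. Without young replicate 1 the median over windows was 20.1 points, and all 16 were positive. Of the 30 tiles 21 passed, 20 of them higher, where 31.4% of all tiles passed and 12.3% passed as higher. In 12 of 16 windows the RPC libraries lay wholly above the young ones, as did 18.1% of all tiles. Without young replicate 1, 11 tiles and 8 windows passed, where 27.4% of all tiles did, and without RPC replicate 1, 12 tiles passed, where 22.2% of all tiles did.

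**Figure D5:**
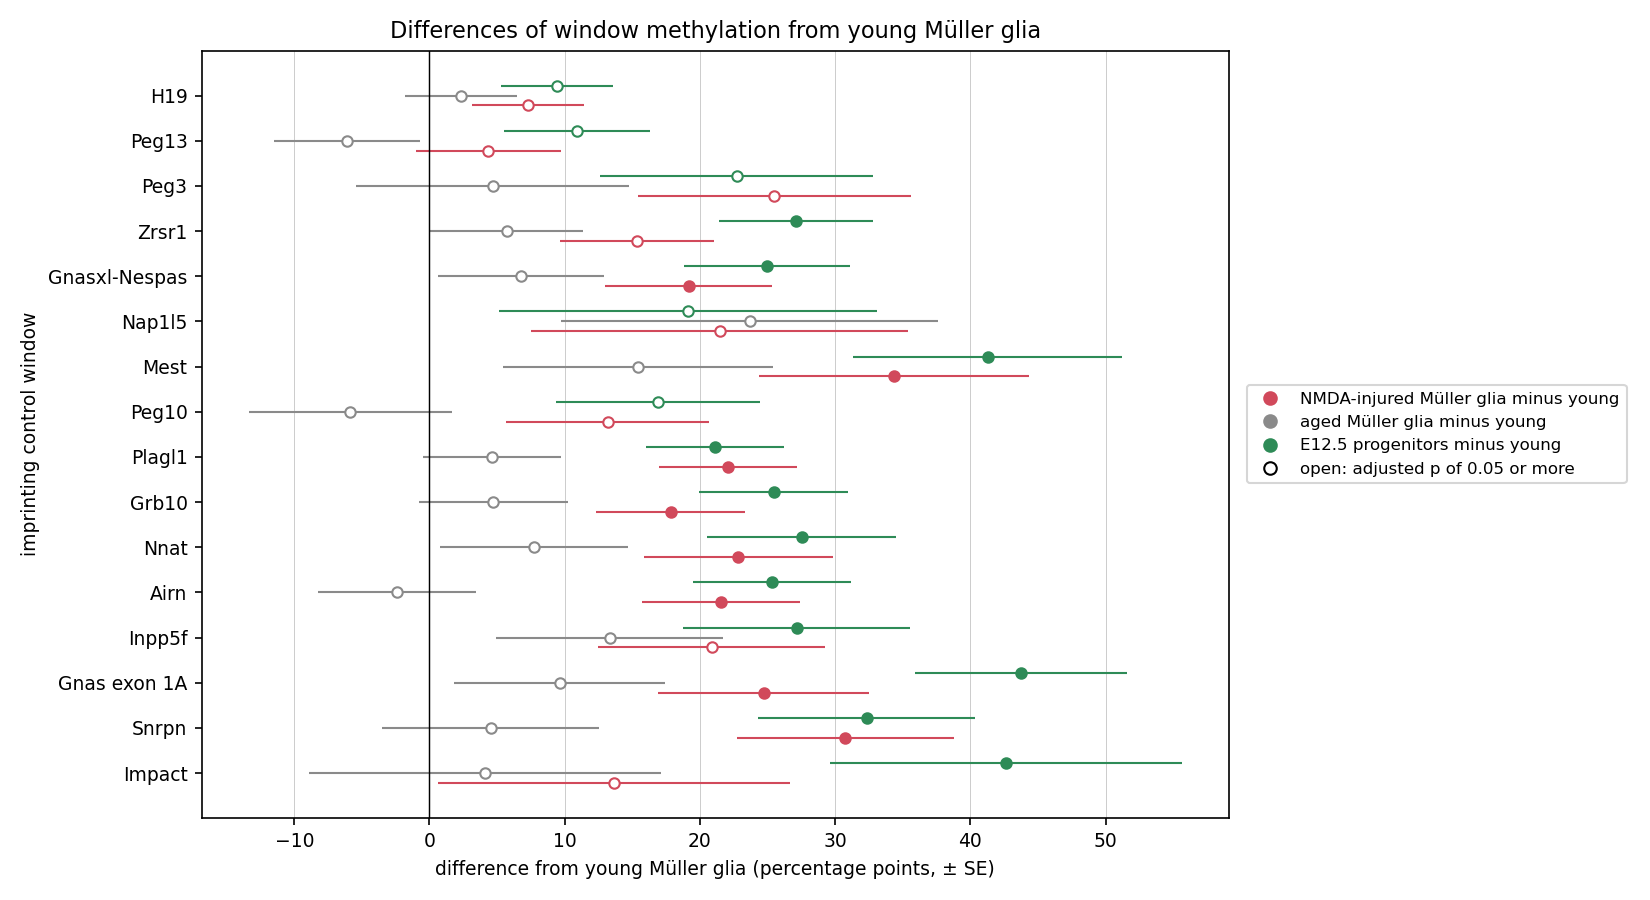
Difference of window methylation from young Müller glia (percentage points) for NMDA-injured and aged Müller glia and E12.5 progenitors, with bars of 1 SE from limma and filled points for an adjusted p under 0.05. Filled points are 8 of 16 windows for NMDA, 0 for aged and 11 for RPC, and they lie between 17.8 and 43.7 points.

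Gnas exon 1A had the largest difference in RPCs with all libraries, while Impact or Mest had the largest under several other settings, among them the fit without young replicate 1 (Impact). The exon 1A libraries read 57.2, 52.1 and 42.7% in RPCs against 5.15, 9.37 and 6.24% in young cells, 43.7 points higher (SE 7.8; limma adjusted p = 0.00188), and 40.3 points without young replicate 1 (adjusted p = 0.0066). Of its 68 positions 64 passed. The young libraries were close to each other in this window, and neither group came near the other. Zrsr1 (chr11:22971001-22975000, 150 positions) read 20.4, 39.2 and 34.5% in young and 63.8, 56.1 and 55.5% in RPC libraries (27.1 points, limma adjusted p = 0.00468). Within Zrsr1 the difference grew from the tile at 22972001-22973000 (means of 37.8% in young and 58.2% in RPCs) to the tile at 22974001-22975000, where young libraries read 13.7, 18.6 and 20.9% and RPC libraries 72.1, 62.0 and 60.1% (limma adjusted p = 3.9e-05). NMDA libraries read 41.6, 28.2 and 33.7% in that last tile, and it passed in both comparisons.

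Impact, which encodes a regulator of translation under amino acid shortage, read 3.27, 4.28 and 1.12% in young, 23.4, 5.28 and 20.9% in NMDA, 0.362, 20.7 and 0% in aged and 32.7, 20 and 83.8% in RPC libraries (chr18:12972001-12975000, 24 positions). The RPC difference was 42.6 points with an SE of 13.0 (limma adjusted p = 0.0283), and without young replicate 1 the adjusted p was 0.0605. Without RPC replicate 3 the Impact difference was 23.5 points (limma adjusted p = 0.0314). Over positions with at least 20 reads it was 11.1 points (limma adjusted p = 0.462), but not every RPC library had a value there. Over positions in all 12 files it was 51.8 points, and with reads summed 52.1 points. RPC replicate 3, the highest, listed 12 of the 24 Impact positions. The RPC libraries of Impact had an SD of 33.8 points, the largest of any tested window in any group. Inpp5f, which encodes an inositol phosphatase, read 0.122, 15.8 and 7.12% in young and 49.4, 33.2 and 22.0% in RPC libraries (chr7:128688001-128690000, 36 positions; 27.2 points, limma adjusted p = 0.0299, and 0.0948 without young replicate 1). Young replicate 1, the lowest, and RPC replicate 1, the highest, each listed 20 of the 36 Inpp5f positions. Grb10 read 47.4, 35.4 and 47.3% in RPC libraries and was 25.5 points higher than young (limma adjusted p = 0.00565), or 18.8 points without young replicate 1 (adjusted p = 0.0515).

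The largest tile gains in RPCs were the last Zrsr1 tile (47.0 points), the Mest tile at 30738001-30739000 (45.8 points, limma adjusted p = 0.00723) and the Zrsr1 tile at 22973001-22974000 (44.4 points, limma adjusted p = 4.7e-04). Aged libraries read 41.0, 39.4 and 30.8% at Zrsr1, 28.4, 23.6 and 11.1% at Inpp5f, 11.4, 21.8 and 5.46% at Peg10 and 32.7, 36.4 and 31.1% at Peg13. The RPC libraries read 57.3, 37.8 and 35.7% at Nnat, 59.0, 49.2 and 50.5% at Gnasxl-Nespas, 44.2, 33.3 and 40% at Airn and 50, 65 and 19.3% at Nap1l5. Nap1l5 again spread widely within the group, and RPC replicate 1 listed 14 of its 30 positions. The other RPC differences that passed were 41.3 points at Mest, 32.3 at Snrpn, 27.5 at Nnat, 25.3 at Airn, 24.9 at Gnasxl-Nespas and 21.1 at Plagl1. Each of these 6 windows passed without young replicate 1 as well (limma adjusted p from 0.0271 to 0.0478). Peg10, Nap1l5, Peg3, H19 and Peg13 did not pass. Peg10, a gene derived from a retrotransposon, read 3.41, 33.6 and 19.2% in young and 44.5, 23.1 and 39.2% in RPC libraries (chr6:4746001-4750000, 24 positions; limma adjusted p = 0.114). Peg13 read 29.5, 44.5 and 44.5% in young and 56.8, 42.2 and 52.2% in RPC libraries (chr15:72809001-72812000, 61 positions; limma adjusted p = 0.152). In these windows the groups overlapped, apart from H19.

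By position 396 of 964 passed in RPCs (41.1%, where 5.49% of all positions passed and 3.88% passed as higher), all higher. Without young replicate 1 there were 263 of 930, with 1 lower (28.3%, where 5.04% of all positions passed). The largest differences were at Zrsr1 and Gnas exon 1A. At chr11 position 22974212 on the reverse strand, in Zrsr1, young libraries read 0, 6.38 and 3.33% and RPC libraries 80, 83.3 and 57.1% (10 to 55 reads; adjusted p = 5.7e-06). The neighbour at 22974146 read 17.9, 20.8 and 16.7% in young and 91.7, 92.0 and 69.2% in RPC libraries (adjusted p = 0.00039). At chr2 position 174328738 on the forward strand, in Gnas exon 1A, young replicates 1 and 3 read 0% and RPC libraries 62.2, 77.3 and 64.5% (29 to 76 reads; adjusted p = 5.1e-06). With no borrowing of the spread 107 window positions passed, where 2.86% of all positions did.

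H19, a noncoding RNA gene whose control region carries the paternal mark and directs Igf2, the growth factor gene next to it, differed in its parts. The H19 window (chr7:142575001-142582000) held 20 positions in 5 tiles and read 46.3, 54.5 and 49.5% in young, 56.8, 54.9 and 60.3% in NMDA, 54.6, 52.5 and 50.2% in aged and 60.2, 61.9 and 56.4% in RPC libraries. No comparison passed for the whole window (limma adjusted p = 0.237, 0.772 and 0.109). Its mean joins highly methylated gene tiles, at 77.0 to 97.3% in every group, with lower ones. The tile at 142581001-142582000 (4 positions) read 17.0, 16.8 and 18% in young, 45.2, 29.7 and 25.7% in NMDA, 9.67, 20.1 and 5.77% in aged and 47.4, 44.0 and 44.1% in RPC libraries. In that tile NMDA was 16.2 points higher than young (limma adjusted p = 0.0321) and RPC 27.9 points higher (adjusted p = 0.00177). The tile at 142576001-142577000 passed in RPCs as the one lower tile, at 89.1% ± 2.7 against 97.3% ± 2.3 in young (SD, n = 3; limma adjusted p = 0.0262).

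The second paternal region, Meg3-Dlk1 (chr12:109526001-109530000), held 2 positions and was not tested. They averaged 33.0, 83.9 and 61.5% in young, 70.3, 77.8 and 71.4% in NMDA, 73.8, 54.7 and 58.6% in aged and 20.6, 38.0 and 34.4% in RPC libraries. Here 2 of 3 young libraries were above the RPC libraries. Kcnq1ot1, the start of a noncoding RNA that silences its neighbours, held no position that met the rule, because no RPC file listed 1 there.

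The RNA libraries were separate samples, and 46 genes linked to the windows by name or neighbourhood were in the count table, 39 of which were tested with edgeR. Of these 23 passed after NMDA (13 higher and 10 lower, where 44.9% of all genes passed, 30.6% higher and 14.3% lower). With age 12 passed (10 higher and 2 lower, where 27.0% of all genes passed, 21.1% higher and 5.85% lower), and in RPCs 29 (20 and 9, where 60.8% passed, 35.9% higher and 24.9% lower). The shares, 59.0, 30.8 and 74.4%, are read against those backgrounds. With upper-quartile scaling, which moved the median of all genes by -0.22 on the log2 scale after NMDA, the NMDA split was 9 higher and 14 lower. Of the 39, 7 have no annotated gene overlapping their span, and of these 4, 0 and 6 passed. The values of the others, folds included, may hold reads of an overlapping gene. In bulk RNA samples fewer cells of a type and less RNA per cell cannot be told apart.

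Several linked genes stood apart in RPCs. Grb10 was at 159 and 205 CPM in young and at 2032, 2020 and 1952 CPM in RPC libraries (log2 3.33 ± 0.18, edgeR adjusted p = 9.2e-07). Plagl1 was at 110 and 163 CPM in young and at 1188, 1130 and 1250 CPM in RPC libraries (log2 2.99 ± 0.21, edgeR adjusted p = 4.8e-06). For both genes the Müller groups, NMDA and aged included, were between 81.0 and 205 CPM. No edgeR test of NMDA or aged against young passed for these genes with TMM scaling. With upper-quartile scaling Plagl1 passed as lower after NMDA (log2 -0.58, edgeR adjusted p = 0.037). H19 had 1 count in each young library and stood at 542 to 826 CPM in RPCs. Zrsr1 fell by 3.50 on the log2 scale in RPCs, from 51.2 and 63.6 CPM to between 4.96 and 5.96 CPM (edgeR adjusted p = 7.3e-07), and Herc3, the host gene of Nap1l5, fell by 2.40 (adjusted p = 3.3e-06). RPC libraries also held 1411 to 9518 CPM of 6 blood genes, against 0.84 to 12.3 in Müller libraries, whose photoreceptor genes summed to 4789 to 12017 CPM against 23.6 to 32.0 in RPCs. The part of those cells in the results was not tested.

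Other cell type markers also moved with NMDA: 6 microglia genes summed to 91.5, 741 and 160 CPM against 6.31 and 67.8 in young, and 6 inner neuron genes to 229 to 445 CPM against 89.9 and 129. Their part in the gene differences was not tested. Of the genes named with NMDA and age, Peg10, Cdkn1c, Impact and Dlk1 have no overlapping annotated gene. After NMDA Igf2 fell by 2.33 on the log2 scale, from 523 and 297 CPM to 86.8, 42.5 and 97.7 (edgeR adjusted p = 0.0013). Peg10 fell by 2.70, from 45.6 and 22.5 CPM to between 4.62 and 5.36 (edgeR adjusted p = 3.3e-04). Nnat fell by 1.72, Zrsr1 by 1.24, Kcnq1ot1 by 1.18 and Impact by 0.76 (edgeR adjusted p from 5.7e-04 to 0.013). Peg3 rose by 1.75 after NMDA and by 2.63 with age, and Meg3, a noncoding RNA expressed from the maternal copy, rose by 2.31 and 2.90 (edgeR adjusted p = 2.8e-05, 6e-06, 0.0019 and 0.0015). Inpp5f rose by 1.73 and 0.76, and Mest by 0.90 and 1.45 (edgeR adjusted p from 1.2e-04 to 0.030). With upper-quartile scaling Mest after NMDA (adjusted p = 0.073 by edgeR) and Inpp5f with age (adjusted p = 0.051 by edgeR) did not pass. Cdkn1c, a cell cycle inhibitor gene of the Kcnq1ot1 region, was at 55.1 and 13.0 CPM in young and 9.54 to 12.2 in NMDA libraries (fell by 1.57, edgeR adjusted p = 0.024). Blcap, which overlaps Nnat, fell by 1.79 after NMDA (edgeR adjusted p = 1.2e-05), and Trappc9 rose by 1.85 after NMDA and by 1.88 with age (edgeR adjusted p = 2.4e-05 and 3.6e-05). Igf2r rose by 0.76 in RPCs and Peg13 fell by 1.00 (edgeR adjusted p = 0.0019 and 5.5e-04). Dlk1 was at 0 in young and aged libraries and at 0.826 to 9.49 CPM in RPCs. Airn and Nap1l5 stayed under 10 CPM in every library and passed no test. Snrpn was at 61.7 and 57.5 CPM in young, 26.4 to 30.9 in NMDA and 0.11 and 0 in aged libraries, and Gnas at 0 in both young libraries, 452 to 533 CPM in NMDA and 395 to 403 in aged ones. Gnas and Snrpn overlap other annotated genes (Snrpn overlaps Snurf), the reads of which the authors' counting may assign differently between libraries, so these values are uncertain and no fold is given. The folds given for other genes that overlap an annotated gene, Trappc9 and Meg3 among them, carry the same doubt.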

How the data were processed

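RRBS of 12 libraries and RNA-seq of 10 were used. Per the submitters' processing notes, the tools were Trim Galore 0.4.3, Bismark 0.16.3, methylKit 1.4.0 and HISAT2 2.0.4 on mm10. Per the file headers, the authors gave coverage with the percent of C and of T reads per cytosine, and no listed position had under 10 reads. The authors deposited raw counts per gene (library totals of 10149390 to 36486072), and the counting tool is not given in the sources used here. Methylated reads were recomputed from the percent and the coverage.

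Positions were tested with a quasi-binomial model over the 4 groups and an F test. The overdispersion was moderated within strata of level and coverage, a change from unstratified moderation made after simulated data showed false calls. Calls needed a Benjamini-Hochberg adjusted p under 0.05 over all autosomal positions and at least 10 points. Means of 1 kb tiles (at least 3 positions) and of windows, in which each position was centred on the mean of its group means so that unlisted positions do not shift a library, were fitted with limma 3.58.1 (trend) and adjusted over all tiles and windows together, and genes with edgeR 4.0.16 (quasi-likelihood, TMM). These models share 1 spread over the groups, and p-values rest on the spread between libraries. A limma SE can thus differ from that of the 2 groups' own spread. It was 13.0 against 19.5 points at Impact in RPCs and 8.0 against 11.2 at Snrpn after NMDA. At Gnas exon 1A in RPCs it was 7.8 against 4.4 points. In the position test most of that spread is borrowed from other positions. Its median weight for window positions was 36.7 degrees of freedom, against at most 8 from the position itself. On simulated RPC and young data the position test recovered 32 of 200 changes of 25 points with 2 false calls among 20000 positions. The tile test recovered 136 of 200 changes of 30 points with 2 false calls among 20000 tiles. The simulated positions all had the same spread setting, whereas window positions varied more than others. The position counts therefore do not give the rate of false calls in the windows.

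The members and lists were chosen with earlier results of these data known. Named were all windows, up to 3 called positions per comparison with the largest difference, called tiles (the 3 largest gains and losses where over 6), and linked genes that give a window its name, with H19, Igf2, Cdkn1c, Dlk1, Meg3, Igf2r and up to 3 others by smallest adjusted p. Herc3, Blcap and Trappc9 entered by that last part. Positions called with other coverage minimums, files, strands, models and left-out libraries were the alternatives. Sex chromosomes were not used, because earlier results of these data showed that the mice differed in sex. The part of sex in the autosomal values was not tested.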

Additional observations from a re-analysis of the deposited data

How the results depend on the processing

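Leaving out 1 library gave 13 to 203 called positions after NMDA, 2 to 49 with age and 263 to 504 in RPCs, 3 to 18, 0 to 2 and 11 to 24 called tiles, 2 to 10, 0 and 8 to 12 called windows, and 18 to 31, 9 to 21 and 26 to 30 called genes. At 25 points and an adjusted p under 0.01, 29, 6 and 251 positions passed, and with no moderation, chosen after seeing the data, 0, 0 and 107. Of all positions 0.234, 0.0724 and 3.33% passed in the former, and 0, 0 and 2.86% in the latter. With the 2 groups alone 17 positions passed with age, 6 tiles after NMDA and 13 in RPCs, and 4 genes with age. The 1 tile called with age became 0 with no trend, at 10 points, at 20 reads, at 1 position and at 5 positions. That H19 tile holds 4 positions and differed by -7.99 points. The minimums of 10 points and of 5 positions therefore leave it out by rule and do not test the call. It became 5 with reads summed (16.7%, where 35.2% of all tiles passed). With the 2 groups alone the tile called with age was higher, not the lower H19 tile. Counts of windows, tabulated over these settings after seeing the data, fell from 8 to 5 with no trend and 1 with the 2 groups alone after NMDA, and rose from 0 to 3 with reads summed with age. Among linked genes without an overlapping gene 4, 0 and 6 passed. Gene counts from fits that leave 1 young or aged RNA library are not given. The other counts of positions, tiles, windows and genes tabulated stayed within 1.5 times of their main value. The cause of these changes was not tested.

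The replicate numbers did not pair the libraries: same-numbered RRBS libraries had correlations of deviations from -0.085 to 0.054. With the replicate block 101, 56 and 381 positions, 11, 1 and 20 tiles, 6, 0 and 11 windows and 20, 11 and 27 genes passed.

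The Peg13 difference after NMDA turned from 4.37 to -0.824 points at 20 reads, -0.721 in all 12 files, -2.40 with reads summed and -0.527 to 6.10 without single libraries. With age, reads summed gave -1.73 at H19 and -1.65 at Zrsr1. Left-out libraries gave, with age, -0.692 to 12.1 at Gnasxl-Nespas, -13.5 to 1.57 at Peg10, -7.99 to 14.3 at Peg3, -0.936 to 7.94 at Snrpn, -1.91 to 15.7 at Grb10, -6.16 to 1.69 at Airn and -2.71 to 7.63 at Impact. None of these had passed. Files list no position under 10 reads, so shallower sites were not analysed here, and coverage does not count molecules.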

Other observations

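The Kcnq1ot1 window (chr7:143294001-143297000) entered no comparison. Young replicates 1 and 2 listed 28 and 19 positions there, with medians of 100 and 92.9%, and young replicate 3 listed 0. The NMDA libraries listed 20 each, with medians of 8.04, 3.45 and 3.15%. The aged libraries listed 34, 20 and 20, with medians of 0, 5.80 and 0.667%. The RPC libraries listed 0. These medians are over each file's own positions, and no shared position was compared.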
